A study of Homo sapiens with 9 samples.

Results

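Expression of 8 genes of the neural crest and the Schwann cell lineage was followed through 9 RNA-seq libraries of A375 cells, a human melanoma line in long use. The 8 genes were NGFR, GFRA1, FOXD3, SOX2, PMP22, CDH19, S100B and AQP4, out of 18430 genes in the count table. They were picked by name because they were higher after vemurafenib and differed from one another after cisplatin. The contrasts among the 3 groups therefore chose the genes, and their values are given as a description, with no test. All 8 passed the filter on low counts that left 13989 genes for testing, AQP4 only through its vemurafenib libraries.

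The cells were A375 melanoma cells with the genotype BRAFV600E in each of the 3 groups. The vemurafenib group had 3 days of this BRAF inhibitor at 10 µM. The cisplatin group had 1 day of this DNA-crosslinking compound at 2 µM. Both went back to normal culture without drug and were collected on day 7, and untreated cells in normal culture were collected simultaneously as the control. Dose, exposure and time since withdrawal differed between the drugs and cannot be told apart from the choice of drug. Each group had 3 libraries, and no label says that they came from separate cultures, so the spread between them may be technical. By its title, the study asked about a secretory phenotype of senescence after vemurafenib.

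The neural crest is a migratory embryonic cell population that gives rise to melanocytes and to Schwann cells, the glia of peripheral nerves. Melanoma cells can take up a state that resembles neural crest cells or Schwann cell precursors, with low pigment genes and high NGFR, and this state is known from melanomas under BRAF inhibition. The genes described here include surface receptors (NGFR, GFRA1), transcription factors of the early neural crest (FOXD3, SOX2), membrane and adhesion proteins of Schwann cells (PMP22, CDH19), a calcium-binding protein used as a marker of both lineages (S100B) and a water channel of glia (AQP4).

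In RefSeq coordinates of GRCh38, NGFR spans chr17:49495293-49515008 on the plus strand and PMP22 chr17:15229779-15265326 on the minus strand. FOXD3 lies at chr1:63322567-63325128 on the plus strand and SOX2 at chr3:181711925-181714436 on the plus strand. GFRA1 occupies chr10:116056925-116274705, S100B chr21:46598604-46605082, CDH19 chr18:66501083-66604090 and AQP4 chr18:26852038-26865803, all on the minus strand. The labels do not say that strand was marked, so reads of NGFR, FOXD3 and AQP4 cannot be told apart from reads of the antisense genes NGFR-AS1, FOXD3-AS1 and AQP4-AS1 that overlap them. The same limit holds for PMP22, which the antisense gene AC005703.3 of the GENCODE 29 annotation overlaps. It also holds for the stretch of GFRA1 that LOC107984273, a long noncoding RNA gene of RefSeq, overlaps. Reads of SOX2 likewise cannot be told apart from those of SOX2-OT, which runs across it on the same strand.

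Promoter windows of RefSeq (GRCh38.p14, 300 bases, from 250 before to 50 after a transcript start) were matched for 6 of the 8 genes, with 13 windows in all. The letters ACAAAG, a core that SOX proteins bind, stood in 5 of these windows on either strand, 1 in each of FOXD3, SOX2, GFRA1, PMP22 and CDH19. These 5 windows are shown because SOX2 is itself among the genes and SOX10, the SOX factor of melanocytes and Schwann cells, was abundant in every library. The windows are FOXD3 at chr1:63322317-63322616 and SOX2 at chr3:181711675-181711974 on the plus strand, and GFRA1 at chr10:116274656-116274955, PMP22 at chr17:15265277-15265576 and CDH19 at chr18:66604041-66604340 on the minus strand. Each is written 5′ to 3′ on the strand of its gene, with capitals marking ACAAAG or, on the other strand, CTTTGT.
FOXD3: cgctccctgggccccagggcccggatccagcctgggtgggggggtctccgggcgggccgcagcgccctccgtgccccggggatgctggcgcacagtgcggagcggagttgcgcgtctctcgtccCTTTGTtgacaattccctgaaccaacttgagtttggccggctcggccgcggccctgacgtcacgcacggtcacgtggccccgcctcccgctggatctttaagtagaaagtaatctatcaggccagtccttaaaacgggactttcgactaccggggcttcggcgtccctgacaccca
SOX2: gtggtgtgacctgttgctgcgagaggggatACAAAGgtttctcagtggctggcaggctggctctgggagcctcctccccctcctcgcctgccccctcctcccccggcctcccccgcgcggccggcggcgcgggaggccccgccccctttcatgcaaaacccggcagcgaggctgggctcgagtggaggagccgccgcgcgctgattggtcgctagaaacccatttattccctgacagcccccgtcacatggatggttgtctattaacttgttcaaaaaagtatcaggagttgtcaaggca
GFRA1: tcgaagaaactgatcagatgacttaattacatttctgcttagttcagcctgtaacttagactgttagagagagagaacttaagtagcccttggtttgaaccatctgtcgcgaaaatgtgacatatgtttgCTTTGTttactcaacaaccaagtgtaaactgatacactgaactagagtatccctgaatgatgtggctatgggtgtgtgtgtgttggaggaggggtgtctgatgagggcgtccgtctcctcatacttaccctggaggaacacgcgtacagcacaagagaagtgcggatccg
PMP22: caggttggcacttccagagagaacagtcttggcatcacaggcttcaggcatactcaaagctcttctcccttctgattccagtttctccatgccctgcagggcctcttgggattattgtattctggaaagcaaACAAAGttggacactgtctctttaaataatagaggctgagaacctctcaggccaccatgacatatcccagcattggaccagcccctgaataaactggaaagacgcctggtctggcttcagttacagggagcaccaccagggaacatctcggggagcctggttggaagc
CDH19: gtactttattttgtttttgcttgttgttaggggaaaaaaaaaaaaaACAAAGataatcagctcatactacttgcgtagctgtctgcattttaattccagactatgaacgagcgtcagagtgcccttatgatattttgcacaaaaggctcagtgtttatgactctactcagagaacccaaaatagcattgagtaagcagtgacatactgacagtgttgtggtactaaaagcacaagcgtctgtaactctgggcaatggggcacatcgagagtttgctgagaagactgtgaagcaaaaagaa

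The first base of the match lay at -126 from the start in FOXD3, -220 in SOX2, -120 in GFRA1, -118 in PMP22 and -204 in CDH19. It overlapped none of the other motifs searched. The same 6 letters occurred in 16.1% of 35116 RefSeq windows and, counting a gene once, in 19.0% of 27305 genes. GFRA1 had 4 windows and PMP22 and AQP4 had 3 each, which gave them more chances of a match than a gene with 1 window. ACAATG, another SOX core, was in none of the 13 windows and in 10.8% of all windows. The E-box CATGTG, a form that MITF binds, was in windows of 3 of the 6 genes (SOX2, GFRA1 and AQP4) against 13.4% of all genes, and the E-box CACGTG was in the FOXD3 window alone, against 8.8%. The GC box GGGCGG was found in 4 of the 6 genes, against 48.3% of all genes. The TEAD core GGAATG was found in GFRA1 and AQP4 (16.7% of all genes), the AP-1 site TGANTCA in none (9.4% of all genes) and the TATA box TATAAA in AQP4 (11.5% of all windows). A match is a run of letters, not a shown binding site, and a window without one says nothing about the factor.

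Library totals lay between 14481020 and 16038475 estimated counts. With edgeR's quasi-likelihood test and Benjamini-Hochberg adjustment at 0.05, 3082 genes (22.0% of those tested) were called higher and 3200 (22.9%) lower after vemurafenib against control. Scaled by total counts alone, those numbers were 3972 and 2646, so 60.0% of the calls were higher against 49.1% with TMM scaling, and the median log2 fold change of all genes was 0.11 against 0.01. With limma on log2(TPM + 1), 59.3% of the calls were higher. Vemurafenib replicate 1 stood apart from replicates 2 and 3 on the third principal component, which held 5.84% of the variance (39.1 against -22.3 and -22.7). Its log2 difference from the mean of the other two fell with gene length (Spearman correlation -0.67 across 11151 genes, which are not independent replicates). Without this library, 3716 genes were called higher and 3956 lower after vemurafenib against control. Values without it are therefore given beside the vemurafenib fold changes of the 8 genes and the counts of related genes that it moved by more than 1.

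SOX10 had a mean of 804 TPM (a level scaled by gene length and library total) in vemurafenib, 610 TPM in cisplatin and 730 TPM in control libraries. As a factor of both melanocytes and Schwann cells, it does not tell these lineages apart. MITF, the master regulator of melanocytes, averaged 36.9 TPM in vemurafenib, 16.7 TPM in cisplatin and 15.0 TPM in control libraries. The pigment cell genes MLANA, TYR and TYRP1 were each below 1 TPM on average in every group. PMEL, another pigment cell gene, averaged 1.66 TPM in vemurafenib, 4.25 TPM in cisplatin and 1.67 TPM in control libraries. Pigment genes were not low as a whole, since DCT, a pigment enzyme outside this marker list, rose strongly after vemurafenib (values below). Of 8 markers of Schwann cells that are not among the genes described, the summed level was 550 to 896 TPM in vemurafenib, 182 to 199 TPM in cisplatin and 61.2 to 66.4 TPM in control libraries. The myelin genes MBP and PMP2 of that list averaged at most 0.13 TPM in any group. Markers of astrocytes, endothelium, fibroblasts, keratinocytes and blood had summed levels of at most 79.6 TPM in any library, the highest gene being LYZ at 58.8 TPM after cisplatin. The neuron list summed to at most 410 TPM, nearly all of it the tubulin TUBB3. The part of Schwann-like cells or of any other cell type in the values that follow was not tested. In bulk RNA, a higher share of cells of one state and more RNA per cell cannot be told apart.

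NGFR, the low-affinity receptor for all neurotrophins, was high after vemurafenib and nearly lost after cisplatin. It was at 208, 190 and 160 TMM-normalised CPM (read counts scaled to library size) in the 3 vemurafenib libraries, at 1.04, 0.611 and 1.07 CPM in the cisplatin libraries, and at 6.98, 9.42 and 11.2 CPM in the controls. The groups did not overlap, and control libraries lay between the 2 treated groups. Means were 186.0 ± 23.9 CPM after vemurafenib, 0.905 ± 0.255 CPM after cisplatin and 9.19 ± 2.11 CPM in controls (SD, n = 3 each). Against control, NGFR was 20.2-fold higher after vemurafenib (log2 4.34 ± 0.19 SE, or 4.25 without vemurafenib replicate 1) and 10.2-fold lower after cisplatin (log2 -3.33 ± 0.26). The cisplatin level rests on 15, 9 and 16 estimated counts. The cisplatin to control ratio of summed CPM was 0.0984, with an exact 95% binomial interval of 0.0693 to 0.136. This interval covers counting error only and leaves out the spread between libraries. Between the drugs the log2 difference was 7.67 ± 0.24, the 6th highest of 13989 genes in vemurafenib against cisplatin.

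NGFR was the one of the 8 genes that lay on opposite sides of control by more than 3 log2 units after the 2 drugs. Among tested genes outside the 8, the pattern over the 9 libraries closest to that of NGFR belonged to SEC14L5, STXBP6, ATOH8, ABI3BP and FAT3. Their root mean square distances from NGFR, in log2 CPM after subtracting the control mean, were 0.97, 1.15, 1.42, 1.56 and 1.62. SEC14L5 averaged 22.5 CPM after vemurafenib, 0.0231 CPM after cisplatin and 0.526 CPM in controls. ATOH8, a basic helix-loop-helix factor, averaged 40.9 ± 9.15 CPM after vemurafenib, 2.23 ± 0.606 CPM after cisplatin and 6.94 ± 1.58 CPM in controls. For the other 7 genes the closest pattern lay at 0.14 to 0.34.

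**Figure D1:**
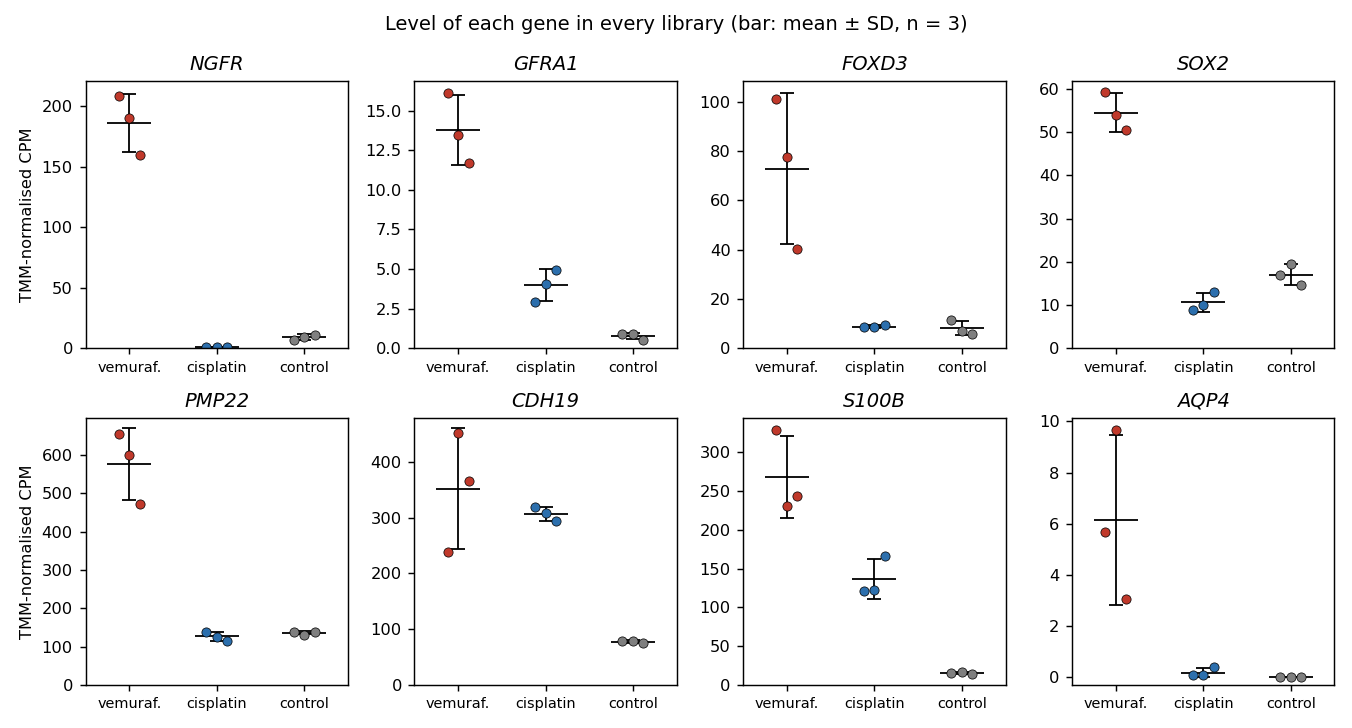
Level of each of the 8 genes in TMM-normalised CPM (linear axes from 0, own scale per gene) in the 3 vemurafenib (red), 3 cisplatin (blue) and 3 control (grey) libraries. Points are libraries and bars the mean ± SD. NGFR reaches 160 CPM or more in each vemurafenib library, and CDH19 is the gene whose vemurafenib and cisplatin libraries overlap.

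The other parts of the neurotrophin system were split. Of 19 tested ligands, receptors and adaptors outside the 8 genes, 5 rose and 6 fell after vemurafenib (6 and 6 without vemurafenib replicate 1), beside 22.0% and 22.9% of all tested genes, with a median log2 fold change of -0.05 against 0.01 for all genes. NTRK2, the receptor for BDNF, rose to 9.65 ± 4.59 CPM after vemurafenib, against 0.934 ± 0.491 CPM in controls (log2 3.36 ± 0.44, edgeR adjusted p = 9.29e-05). SORT1, which joins NGFR in the receptor for pro-neurotrophins, rose by a log2 fold change of 0.70 ± 0.13 (edgeR adjusted p = 0.000833), and RIPK2, an adaptor bound by NGFR, fell by 0.78 ± 0.11 on the log2 scale (edgeR adjusted p = 0.000129). BDNF averaged 7.04 ± 1.03 CPM after vemurafenib and 7.52 ± 1.14 CPM in controls, and did not pass the test (edgeR adjusted p = 0.697).

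After cisplatin, where NGFR was lowest, 7 of the same 19 genes rose and 6 fell, beside 22.7% and 23.5% of all tested genes. Without vemurafenib replicate 1, which also sets the shared spread, these counts were 11 and 7. The shares over all tested genes given here for each drug apply to every list of related genes that follows. BDNF rose to 11.9 ± 1.47 CPM after cisplatin (log2 0.66 ± 0.17, edgeR adjusted p = 0.00875) and NTRK2 to 4.15 ± 1.28 CPM (log2 2.14 ± 0.47, edgeR adjusted p = 0.00284). SORL1, a sorting receptor of the sortilin family, rose to 36.2 ± 3.85 CPM after cisplatin against 3.85 ± 1.61 CPM in controls (log2 3.23 ± 0.27, edgeR adjusted p = 2.65e-06). ARHGDIA, a GTPase regulator that binds NGFR, fell to 198.4 ± 21.1 CPM against 402.0 ± 42.9 CPM (log2 -1.02 ± 0.19, edgeR adjusted p = 0.000934).

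GFRA1, the membrane-anchored co-receptor that binds GDNF and presents it to the kinase RET, was higher after both drugs. It was at 16.1, 13.5 and 11.7 CPM in the vemurafenib libraries, at 2.91, 4.07 and 4.93 CPM in the cisplatin libraries and at 0.913, 0.863 and 0.514 CPM in the controls. No library of one group reached the range of another, and the order was vemurafenib, cisplatin, control. Against control, GFRA1 was 18.0-fold higher after vemurafenib (log2 4.16 ± 0.28, or 4.04 without vemurafenib replicate 1) and 5.20-fold higher after cisplatin (log2 2.37 ± 0.30). The control level rests on 14, 13 and 8 estimated counts, and the exact 95% binomial interval of the vemurafenib ratio was 12.8 to 26.1, for counting error only. Per length GFRA1 was near the bottom of the 8 genes, at 3.05 ± 0.299 TPM after vemurafenib, 0.903 ± 0.267 TPM after cisplatin and 0.163 ± 0.0379 TPM in controls.

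GDNF, the ligand of GFRA1, also rose after both drugs. It averaged 116.3 ± 23.2 CPM after vemurafenib, 107.6 ± 20.2 CPM after cisplatin and 26.1 ± 6.79 CPM in controls, and the log2 fold change was 2.15 ± 0.21 for vemurafenib (edgeR adjusted p = 9.61e-06) and 2.04 ± 0.21 for cisplatin (edgeR adjusted p = 1.48e-05). RET, the kinase through which GFRA1 signals, had 2 counts over the vemurafenib, 4 over the cisplatin and 1 over the control libraries and did not pass the filter. NCAM1, an adhesion molecule that can also bind GDNF with GFRA1, fell to 2.58 ± 0.801 CPM after vemurafenib and 1.02 ± 0.3 CPM after cisplatin, against 12.4 ± 2.23 CPM in controls (edgeR adjusted p = 2.86e-05 and 2.09e-06). GFRA2, the relative of GFRA1 that binds neurturin, had summed counts of 109 in vemurafenib, 3 in cisplatin and 3 in control libraries. Its ratio of summed CPM between vemurafenib and control was 35.0 (exact 95% binomial interval 11.7 to 172, edgeR adjusted p = 1.27e-05). Between cisplatin and control the GFRA2 ratio was 1.04 with an interval of 0.139 to 7.77. That interval holds the GFRA1 ratio of 5.23 (summed counts of 176 and 35), so a difference between GFRA1 and GFRA2 after cisplatin was not detectable at this depth. GFRA3, the co-receptor for artemin, was below the filter with 26, 1 and 7 counts over the vemurafenib, cisplatin and control libraries. Of the 6 tested genes of this pathway, 3 rose and 2 fell after vemurafenib, and 2 rose and 2 fell after cisplatin.

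FOXD3, a forkhead factor that maintains early neural crest cells and restrains the melanocyte fate, was higher after vemurafenib and overlapped the controls after cisplatin. It was at 101, 77.5 and 40.3 CPM in the vemurafenib libraries, at 8.38, 8.48 and 9.46 CPM in the cisplatin libraries and at 11.3, 6.97 and 5.91 CPM in the controls. The vemurafenib libraries lay above all others but differed widely among themselves, and cisplatin libraries fell within the range of the controls. The log2 fold change against control was 3.18 ± 0.32 after vemurafenib (2.87 without vemurafenib replicate 1) and 0.12 ± 0.33 after cisplatin. FOXD3 had the highest SE of the 7 genes with counts in every control library, and vemurafenib replicate 1 was 0.86 log2 units above the mean of replicates 2 and 3.

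Of the 3 tested relatives of FOXD3, none rose after vemurafenib in any alternative run and 2 fell. FOXD2 averaged 2.03 ± 0.994 CPM after vemurafenib and 6.08 ± 0.67 CPM in controls (log2 -1.58 ± 0.33, edgeR adjusted p = 0.0022). FOXD1 averaged 8.17 ± 2.28 CPM after vemurafenib, 3.21 ± 0.398 CPM after cisplatin and 13.2 ± 2.71 CPM in controls. It fell after cisplatin (log2 -2.04 ± 0.23, edgeR adjusted p = 3.23e-05), whereas its vemurafenib call (edgeR adjusted p = 0.0197) did not hold without vemurafenib replicate 2, vemurafenib replicate 3 or control replicate 3 (0.0663, 0.061 and 0.0909).

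SOX2, a pluripotency factor that also marks immature Schwann cells, lay on opposite sides of control after the 2 drugs, by less than NGFR. It was at 59.3, 53.9 and 50.4 CPM in the vemurafenib libraries, at 8.72, 9.91 and 13.1 CPM in the cisplatin libraries and at 17.0, 19.4 and 14.6 CPM in the controls. Vemurafenib libraries lay above the controls and cisplatin libraries below them, with 13.1 and 14.6 CPM as the nearest pair. SOX2 was 3.21-fold higher after vemurafenib (log2 1.68 ± 0.16, or 1.62 without vemurafenib replicate 1) and 1.61-fold lower after cisplatin (log2 -0.68 ± 0.17). Its spread between vemurafenib libraries was the lowest of the 8 genes, with a coefficient of variation of 8.21%.

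Genes that share a role with SOX2 fell or did not pass the test. Of 6 tested stemness genes, 0 rose and 2 fell after vemurafenib, and 0 rose and 4 fell after cisplatin. None of these 6 was a SOXB relative of SOX2, and SOX21 of that family did not pass the count filter. Without vemurafenib replicate 1, 1 gene of the 6 was called higher. NES, the intermediate filament of neural stem cells, averaged 128.1 ± 17.5 CPM after vemurafenib, 165.4 ± 2.4 CPM after cisplatin and 235.8 ± 4.78 CPM in controls, and fell in both (edgeR adjusted p = 6.11e-05 and 0.00251). The genes whose pattern was nearest to that of SOX2 were TNS3 and ADARB1, at root mean square distances of 0.14 and 0.17 log2 units.

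Other transcription factors of the neural crest split in the way FOXD3 and SOX2 did in some cases. Of 23 tested, 7 rose and 5 fell after vemurafenib, near the 22.0% and 22.9% of all genes, and 5 rose and 11 fell after cisplatin. ZEB2, a zinc finger factor needed in Schwann cells and melanocytes, had the FOXD3 pattern: it averaged 208.9 ± 60.5 CPM after vemurafenib, 26.4 ± 2.54 CPM after cisplatin and 30.3 ± 2.71 CPM in controls. It rose after vemurafenib (log2 2.79 ± 0.19, edgeR adjusted p = 5.62e-07) and did not pass after cisplatin (edgeR adjusted p = 0.398). NR2F1, an orphan nuclear receptor, rose to 30.2 ± 7.94 CPM after vemurafenib and fell to 1.98 ± 0.532 CPM after cisplatin, against 9.46 ± 2.8 CPM in controls (edgeR adjusted p = 0.00022 and 0.000112). RXRG, a retinoid receptor used as a marker of the neural-crest-like state, rose after both drugs, by log2 1.39 ± 0.21 and 1.18 ± 0.21 (edgeR adjusted p = 0.00024 and 0.000753). TFAP2C fell after both, to 49.4 ± 9.44 CPM after vemurafenib and 22.6 ± 2.58 CPM after cisplatin, against 106.0 ± 2.62 CPM in controls (edgeR adjusted p = 6.53e-05 and 3.26e-07). SOX9 averaged 0.294 ± 0.147 CPM after vemurafenib and 1.08 ± 0.402 CPM in controls, a call (edgeR adjusted p = 0.0216) that did not hold without vemurafenib replicate 2 or without control replicate 3 (0.0737 and 0.0924).

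**Figure D2:**
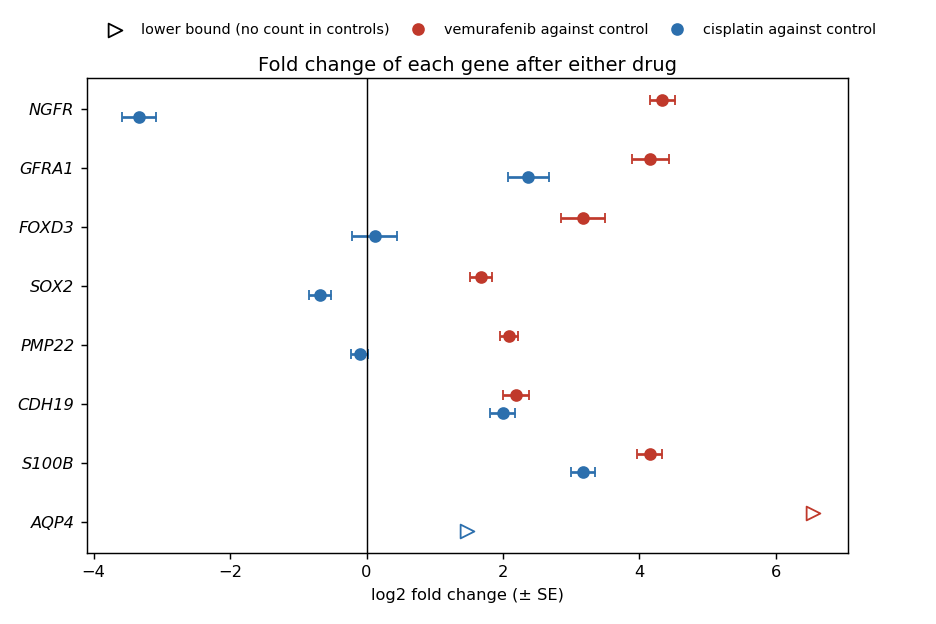
Log2 fold change (x axis, ± SE) of each gene after vemurafenib (red) and after cisplatin (blue), each against the same 3 control libraries. Open triangles are lower bounds for AQP4, which had no count in the controls. Each vemurafenib value lies right of 0, while the cisplatin values run from -3.33 for NGFR to 3.17 for S100B.

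PMP22, a membrane protein of compact myelin whose gene dosage is altered in inherited neuropathies, was higher after vemurafenib and overlapped the controls after cisplatin. It was at 656, 600 and 473 CPM in the vemurafenib libraries, at 139, 126 and 114 CPM in the cisplatin libraries and at 137, 131 and 139 CPM in the controls. Vemurafenib libraries lay above all others, and the cisplatin and control ranges overlapped. The log2 fold change was 2.09 ± 0.13 after vemurafenib (1.99 without vemurafenib replicate 1) and -0.10 ± 0.13 after cisplatin. PMP22 was the most abundant of the 8 genes per length in vemurafenib and control libraries, at 685.8 ± 87.8 TPM and 152.3 ± 7.29 TPM.

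Relatives of PMP22 differed from it. EMP1, an epithelial membrane protein of that family, fell to 97.9 ± 20.9 CPM after vemurafenib, against 253.2 ± 22.7 CPM in controls (log2 -1.37 ± 0.20, edgeR adjusted p = 0.000212). EMP2 fell after both drugs (log2 -0.57 ± 0.13 and -0.61 ± 0.13, edgeR adjusted p = 0.00399 and 0.00252), and EMP3 fell after cisplatin (log2 -0.74 ± 0.16, edgeR adjusted p = 0.00284) but did not pass after vemurafenib (log2 0.14 ± 0.16, edgeR adjusted p = 0.499). TMEM47, a more distant relative found at cell junctions, was the 1 of 4 that rose with PMP22, with a mean of 67.5 ± 14.4 CPM after vemurafenib (log2 2.49 ± 0.17, edgeR adjusted p = 5.94e-07). After cisplatin TMEM47 had a log2 fold change of -0.44 ± 0.17 with an edgeR adjusted p of 0.0568, and it passed without vemurafenib replicate 1 or 2 (0.0117 and 0.0331) and with replicate number as a block (0.0251).

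CDH19, a cadherin of Schwann cell precursors, was higher after both drugs, to overlapping levels. It was at 238, 452 and 366 CPM in the vemurafenib libraries, at 319, 308 and 294 CPM in the cisplatin libraries and at 79.0, 78.1 and 74.2 CPM in the controls. Both treated groups lay above the controls, and the cisplatin libraries fell within the range of the vemurafenib libraries. CDH19 was 4.57-fold higher after vemurafenib (log2 2.19 ± 0.19) and 3.98-fold higher after cisplatin (log2 1.99 ± 0.19). Vemurafenib replicate 1 was 0.78 log2 units below the mean of the other two (a difference of -0.78). Without it, the vemurafenib value was 2.41 and the log2 difference between the drugs, 0.20 ± 0.18 with all libraries, was 0.42. CDH19 has an effective length of 4632 bases, and genes of greater length were lower in vemurafenib replicate 1 in general. The part of this length trend in the CDH19 value was not tested.

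Of 13 tested cadherins and catenins outside the 8 genes, 7 rose and 3 fell after vemurafenib, and 5 rose and 4 fell after cisplatin (7 and 4 of 14 without vemurafenib replicate 1). CDH2, the N-cadherin of neural and mesenchymal cells, rose to 277.9 ± 52.9 CPM after vemurafenib, against 145.9 ± 12.9 CPM in controls (log2 0.93 ± 0.14, edgeR adjusted p = 0.000195). CDH10, like CDH19 a type II cadherin, rose after both drugs and more after cisplatin: it averaged 3.47 ± 0.463 CPM after vemurafenib, 11.3 ± 1.66 CPM after cisplatin and 0.48 ± 0.108 CPM in controls (edgeR adjusted p = 7.17e-06 and 8.77e-08 against control, and 2.55e-05 between the drugs). JUP, the junction protein plakoglobin, fell to 6.8 ± 0.811 CPM after vemurafenib and 15.9 ± 2.42 CPM after cisplatin, against 26.6 ± 2.86 CPM in controls (edgeR adjusted p = 2.22e-06 and 0.00172). CDH1, the E-cadherin by which melanocytes hold to keratinocytes, had no count in the vemurafenib or control libraries and 5 over the cisplatin libraries. CDH2 averaged 110.6 ± 4.35 CPM after cisplatin, with an edgeR adjusted p of 0.0307 that ran from 0.0577 to 0.109 without any 1 of the 3 cisplatin libraries or control replicate 2 or 3.

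S100B, a calcium-binding protein measured in blood as a melanoma marker and in tissue as a Schwann cell marker, was the highest of the 8 per length after cisplatin. It was at 329, 231 and 244 CPM in the vemurafenib libraries, at 121, 122 and 166 CPM in the cisplatin libraries and at 15.1, 16.3 and 13.9 CPM in the controls. The 3 groups did not overlap. S100B was 17.7-fold higher after vemurafenib (log2 4.15 ± 0.18, or 3.98 without vemurafenib replicate 1) and 9.03-fold higher after cisplatin (log2 3.17 ± 0.18). Between the drugs the vemurafenib level was 1.96-fold that of cisplatin (log2 0.97 ± 0.16, or 0.80 without vemurafenib replicate 1). Per length, S100B averaged 300.0 ± 65.8 TPM after cisplatin, above PMP22 at 150.6 ± 10.5 TPM, whereas in controls it stood at 30.6 ± 2.17 TPM against 152.3 ± 7.29 TPM for PMP22.

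The family of S100B went the other way after vemurafenib. Of 11 tested S100 genes, 0 rose and 8 fell (0 and 10 without vemurafenib replicate 1), with a median log2 fold change of -0.95. S100Z, which the count filter removed with all 9 libraries, was called higher under alternatives that tested it, as 1 rise among 12 to 15 tested S100 genes. S100A2 fell to 5.13 ± 2.11 CPM after vemurafenib, against 44.9 ± 4.62 CPM in controls (log2 -3.12 ± 0.27, edgeR adjusted p = 3.57e-06), and S100A4 fell to 89.4 ± 17.5 CPM against 147.4 ± 7.8 CPM (edgeR adjusted p = 0.00119). After cisplatin 5 of the 11 rose and 2 fell. S100A1, which like S100B is found in melanocytic cells, rose to 673.7 ± 81.0 CPM after cisplatin, against 178.3 ± 20.0 CPM in controls (log2 1.92 ± 0.18, edgeR adjusted p = 6.16e-06). After vemurafenib S100A1 averaged 144.7 ± 38.7 CPM (edgeR adjusted p = 0.181), which passed as a fall without vemurafenib replicate 1 (0.00208) and with replicate number as a block (0.0481). S100A10 fell to 276.0 ± 19.3 CPM after cisplatin against 703.8 ± 40.9 CPM in controls (log2 -1.35 ± 0.12, edgeR adjusted p = 5.52e-06).

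**Figure D3:**
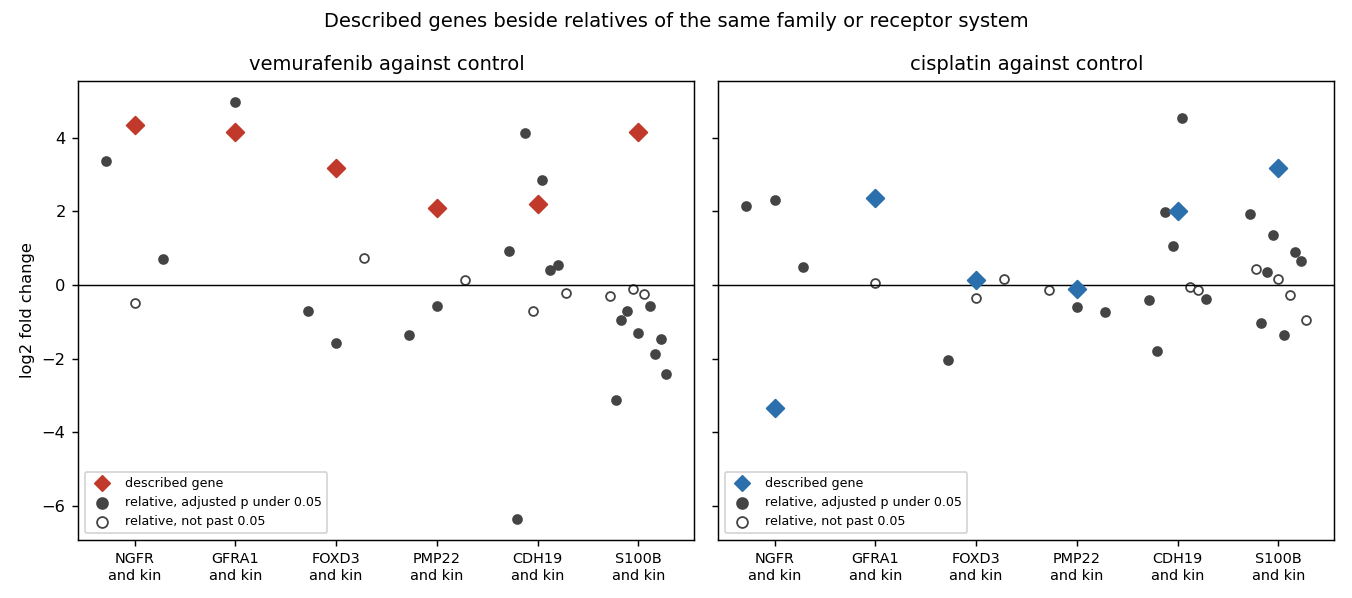
Log2 fold change (y axis) against the 3 control libraries after vemurafenib (left) and cisplatin (right) of 6 of the genes (diamonds) beside tested relatives of the same family or receptor system (circles, filled where edgeR's adjusted p is under 0.05). In the S100 column 0 of 11 relatives is called higher after vemurafenib, where S100B is at 4.15. The lowest circle is CDH3, with 1 count over the vemurafenib libraries and 109 over the controls, a ratio of summed CPM of 0.00883 (exact 95% binomial interval 0.000222 to 0.0503).

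AQP4, the water channel that astrocytes place at blood vessels, was read in treated cells alone. It had 87, 155 and 50 estimated counts in the vemurafenib libraries (5.66, 9.66 and 3.06 CPM), 1, 1 and 6 counts in the cisplatin libraries (0.0692, 0.0679 and 0.4 CPM) and 0 counts in each control library. Vemurafenib libraries lay above all others, and 6 of the 8 cisplatin counts came from replicate 3. Against a floor of 3 counts over the control group, AQP4 was at least 93.7-fold higher after vemurafenib (at least 97.0-fold without vemurafenib replicate 1). The fold for cisplatin on the same floor was at least 2.77-fold higher, and rests on those 8 counts. Without cisplatin replicate 3 the 2 remaining counts are under the floor and give no fold. The vemurafenib to cisplatin ratio of summed CPM was 33.8, with an exact 95% binomial interval of 16.9 to 79.0 that covers counting error only. The spread between vemurafenib libraries was the highest of the 8 genes, with a coefficient of variation of 54.3%, and at 2.44 ± 1.5 TPM AQP4 was the least abundant of them per length.

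Other aquaporins and the proteins that anchor AQP4 gave 5 rises and 3 falls of 11 tested after vemurafenib, and 4 rises and 1 fall after cisplatin. AQP1, a water channel known as a marker of neural-crest-like melanoma cells, rose to 10.1 ± 0.572 CPM after vemurafenib, against 3.26 ± 0.341 CPM in controls (log2 1.63 ± 0.17, edgeR adjusted p = 1.4e-05), and was at 2.92 ± 0.338 CPM after cisplatin (edgeR adjusted p = 0.505). DMD, the dystrophin of the complex that holds AQP4 in the membrane, rose to 15.9 ± 3.07 CPM after vemurafenib against 3.41 ± 1.22 CPM in controls (log2 2.21 ± 0.27, edgeR adjusted p = 4.79e-05). DTNA, a dystrobrevin of the same complex, rose after cisplatin (log2 1.36 ± 0.21, edgeR adjusted p = 0.000265) and did not pass after vemurafenib (log2 -0.17 ± 0.22, edgeR adjusted p = 0.562). TRPV4, a calcium channel that works with AQP4 in glia, fell after vemurafenib to 39.5 ± 4.76 CPM against 123.4 ± 4.4 CPM in controls (edgeR adjusted p = 4.41e-06). Of the astrocyte markers, SLC1A3, a glutamate transporter, averaged 4.14 ± 1.81 TPM after vemurafenib, 2.49 ± 0.337 TPM after cisplatin and 2.54 ± 1.07 TPM in controls. ALDH1L1 reached 0.887 ± 0.327 TPM after cisplatin, and GFAP, SLC1A2 and GJA1 averaged at most 0.363 TPM in any group. The summed level of this list was 2.59 to 6.28 TPM in vemurafenib, 3.22 to 4.49 TPM in cisplatin and 2.04 to 4.21 TPM in control libraries.

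Set side by side, all 8 genes lay above the controls in every vemurafenib library, where 25.8% of all tested genes were so placed and 27.0% lay below. After cisplatin 4 of the 8 (S100B, CDH19, GFRA1 and AQP4) lay above the controls without overlap, 2 (NGFR and SOX2) lay below, and 2 (PMP22 and FOXD3) overlapped them. The same placing held for 33.1% of all genes above and 33.8% below. Between the drugs 7 of the 8 were higher in every vemurafenib than in every cisplatin library (27.9% of all genes), and CDH19 overlapped. The genes were chosen on these contrasts, so the counts describe the choice. Both contrasts with control share the same 3 control libraries.

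The 8 genes fell into patterns that can be compared by the root mean square distance of their 9 log2 CPM values after subtracting each control mean. The closest pairs were PMP22 and SOX2 at 0.48, S100B and GFRA1 at 0.59, and PMP22 and FOXD3 at 0.70. NGFR and S100B were farthest apart at 3.67. S100B and GFRA1 were both higher after vemurafenib and, by less, after cisplatin, and CDH19 was the one whose treated groups overlapped. The nearest genes outside the 8 were FOLH1 and HLA-DOA for S100B (0.27 and 0.28), ZNF503 and FAM178B for PMP22 (0.14 each), MMP17 and NEUROG2 for FOXD3 (0.31 and 0.33) and ICK and PCDHB14 for CDH19 (0.17 and 0.19). For GFRA1 they were ANKDD1B and PKHD1 (0.23 and 0.34) and for AQP4 FGL2 and OLFML2B (0.34 and 0.44). With a prior count of 0.5 in place of 2, 1 of the 2 nearest genes of S100B, 0 of those of GFRA1 and 1 of those of AQP4 were still nearest.

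Per length, the order of the 8 genes in vemurafenib libraries was PMP22, S100B, CDH19, NGFR, FOXD3, SOX2, GFRA1 and AQP4, with means from 685.8 to 2.44 TPM. The libraries of PMP22 and S100B overlapped there, as did those of CDH19 and NGFR, of FOXD3 and SOX2, and of GFRA1 and AQP4. In cisplatin libraries the order was S100B, PMP22, CDH19, FOXD3, SOX2, GFRA1, NGFR and AQP4, with overlap between FOXD3 and SOX2 and between GFRA1 and NGFR. In controls it was PMP22, CDH19, S100B, SOX2, FOXD3, NGFR, GFRA1 and AQP4, with overlap between CDH19 and S100B and between FOXD3 and NGFR. NGFR stood at 113.5 ± 11.5 TPM after vemurafenib, above 92.0% of the genes in the table, at 0.55 ± 0.159 TPM after cisplatin (26.5%) and at 5.28 ± 1.33 TPM in controls (43.6%). The authors' FPKM values, which also scale by length, gave the same order in each group.

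**Figure D4:**
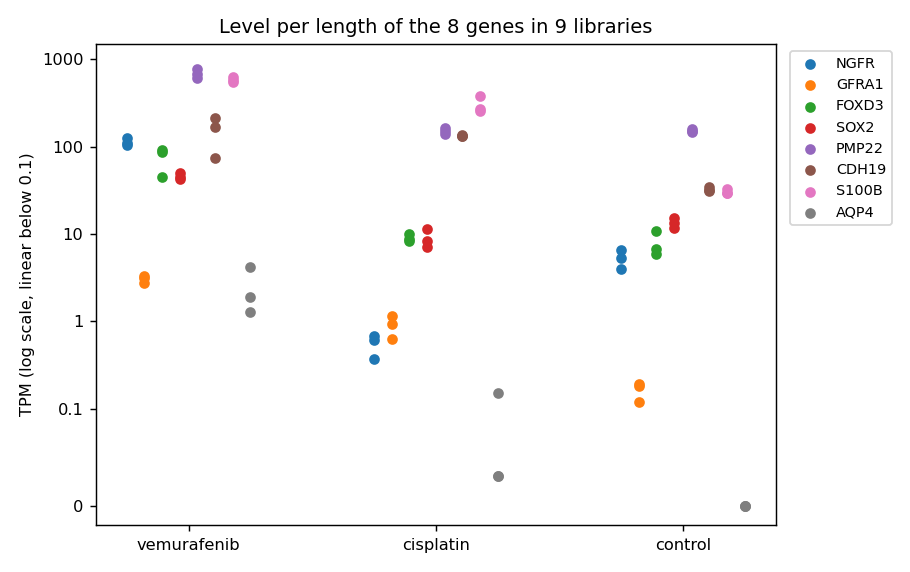
Level per length of the 8 genes in TPM (log scale, linear below 0.1) in each vemurafenib, cisplatin and control library, 1 point per library. PMP22 and S100B are the highest of the 8 after vemurafenib, NGFR goes below 1 TPM in cisplatin libraries alone, and AQP4 is at 0 in the controls.

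The wider Schwann cell list holds none of the 8 genes. Of 21 tested genes, 11 rose and 4 fell after vemurafenib against control, beside 22.0% and 22.9% of all tested genes, with a median log2 fold change of 0.58. Without vemurafenib replicate 1 the counts were 13 and 4, and calls over all genes grew as well. LPAR1, a lysophosphatidic acid receptor of Schwann cells, had a pattern like those of FOXD3 and PMP22, at 28.8 ± 7.78 CPM after vemurafenib, 0.676 ± 0.226 CPM after cisplatin and 0.894 ± 0.179 CPM in controls (edgeR adjusted p = 1.6e-07 and 0.447, and 7.36e-08 between the drugs). POU3F2, a factor of immature Schwann cells and of melanoma, rose to 34.9 ± 4.76 CPM after vemurafenib against 13.8 ± 1.61 CPM in controls (edgeR adjusted p = 7.66e-05).

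EGR2, the factor that drives myelination, ran opposite to NGFR. It fell to 1.86 ± 0.775 CPM after vemurafenib and rose to 67.5 ± 25.7 CPM after cisplatin, against 17.7 ± 3.15 CPM in controls (log2 -3.25 ± 0.36 and 1.93 ± 0.28, edgeR adjusted p = 2.32e-05 and 0.000206). L1CAM, an adhesion molecule of immature Schwann cells, fell after both drugs, to 98.2 ± 18.4 CPM and 55.1 ± 8.56 CPM against 160.1 ± 29.7 CPM in controls (edgeR adjusted p = 0.00526 and 2.81e-05). SOX10, which drives many Schwann cell genes, did not pass the test after vemurafenib, at 1093.0 ± 93.2 CPM against 1060.0 ± 74.4 CPM in controls (log2 0.04 ± 0.11, edgeR adjusted p = 0.77). After cisplatin SOX10 averaged 836.4 ± 50.2 CPM (edgeR adjusted p = 0.0226), a call lost without cisplatin replicate 2 or 3 or control replicate 1 or 2 (0.0586, 0.0896, 0.0903 and 0.0612). ERBB3, the neuregulin receptor of Schwann cells, had a log2 fold change of 0.10 ± 0.11 after vemurafenib (edgeR adjusted p = 0.484, and 0.0489 without vemurafenib replicate 1). MBP, a late myelin gene, did not pass the count filter. After cisplatin 7 of the 21 rose and 5 fell (9 and 5 without vemurafenib replicate 1), beside 22.7% and 23.5% of all tested genes.

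Of 7 other tested genes known from neural-crest-like melanoma cells, 6 rose and 1 (L1CAM) fell after vemurafenib, and 3 rose and 1 fell after cisplatin. This list was written with results of these libraries known, so its direction is no independent evidence. A2M, a protease inhibitor, rose after both drugs, to 90.2 ± 22.4 CPM after vemurafenib and 210.8 ± 43.9 CPM after cisplatin, against 32.3 ± 13.6 CPM in controls (edgeR adjusted p = 0.00112 and 1.78e-05). In the melanocyte differentiation list, 3 of 8 rose and 1 fell after vemurafenib, and 5 rose and 0 fell after cisplatin (4 and 1 without vemurafenib replicate 1). MITF rose to 82.0 ± 20.4 CPM after vemurafenib, against 35.8 ± 1.54 CPM in controls (log2 1.20 ± 0.17, edgeR adjusted p = 0.000152). DCT, a pigment enzyme, averaged 275.1 ± 103.0 CPM after vemurafenib, 0.683 ± 0.326 CPM after cisplatin and 0.0863 ± 0.0978 CPM in controls. Its log2 fold change after vemurafenib was 11.50 ± 0.51 (edgeR adjusted p = 5.28e-08), over a control level of 4 summed counts. Its cisplatin call (edgeR adjusted p = 0.0351) was lost, among other settings, without cisplatin replicate 1 or 2 (0.109 and 0.0528). Of 13 genes of the undifferentiated melanoma state, 1 rose and 9 fell after vemurafenib, and 0 rose and 11 fell after cisplatin. The list counts of 0 given for edgeR were also 0 at an unadjusted p under 0.05, with DESeq2 and with limma on log2(TPM + 1) over the filtered genes. In the undifferentiated list JUN was called higher after cisplatin with the replicate block, with the cisplatin and control groups alone or without cisplatin replicate 1. LOXL2, a collagen-modifying enzyme of that list, fell to 66.8 ± 18.4 CPM after vemurafenib and 17.5 ± 4.27 CPM after cisplatin, against 220.3 ± 27.5 CPM in controls (edgeR adjusted p = 3.88e-05 and 1.95e-07).

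**Figure D5:**
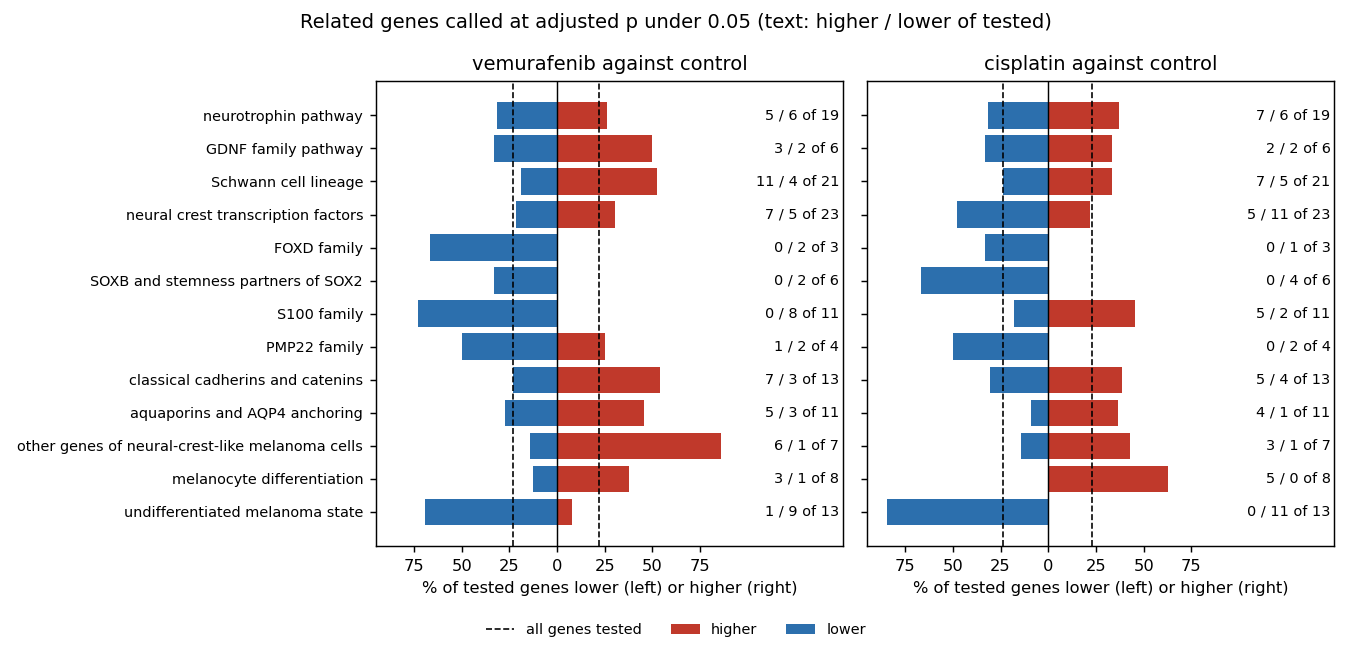
Share of tested genes called lower (blue, left) and higher (red, right) in 13 lists of related genes that hold none of the 8, after vemurafenib and after cisplatin against control. Dashed lines mark the shares over all tested genes (22.0% and 22.9% for vemurafenib, 22.7% and 23.5% for cisplatin, higher named before lower), and the counts stand at the right of each panel. The S100 family has 0 genes called higher after vemurafenib and 5 after cisplatin.

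Over all 139 tested related genes, 46 rose and 46 fell after vemurafenib (52 and 49 of 140 without vemurafenib replicate 1), and 42 rose and 47 fell after cisplatin (51 and 52 of 140). Between the drugs, 53 were higher and 42 lower after vemurafenib than after cisplatin (57 and 45 of 140 without vemurafenib replicate 1), where 23.0% of all genes were higher and 20.8% lower. The median log2 fold change of the 139 was -0.07 after vemurafenib and -0.08 after cisplatin, against 0.01 and 0.0 for all tested genes. Higher and lower calls after vemurafenib were 33.1% each of the related genes, beside 22.0% and 22.9% of all tested genes. After cisplatin they were 30.2% and 33.8%, beside 22.7% and 23.5%. NGFR, GFRA1, S100B and FOXD3 had log2 fold changes of 3.18 or more after vemurafenib. The 8 genes were picked for that rise, so setting them against the related genes describes the choice and is no result.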

How the data were processed

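RNA-seq of 9 libraries, grouped by their titles and treatment labels, was analysed. The submitters' processing notes name HISAT2 2.0.4 as the aligner and hg38 as the build. Which tool counted the reads, and on which annotation, is not given in the sources used here, and no label says that strand was marked. The authors deposited 1 table with estimated counts, TPM and FPKM for 18430 genes. The deposited estimated counts were not whole in 13.6% to 14.1% of values (tolerance 1e-06) and were rounded. TPM and FPKM, the deposited length-scaled values with these names in the file headers, served for levels per length and as alternatives. No 2 libraries shared more than 12.2% of identical counts.

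Counts were tested with edgeR 4.0.16 in R 4.3.3 (filterByExpr, TMM, quasi-likelihood F test, two-sided, Benjamini-Hochberg at 0.05) in 1 fit of group means with 6 residual degrees of freedom. The biological coefficient of variation was 0.139. The fit was tested on simulated data with known changes. Alternatives used DESeq2 1.42.0, limma 3.58.1, other scaling and filters, a replicate block and each library left out. Folds against controls at 0 are bounds on a floor of 3 counts over the group. Exact 95% binomial intervals cover counting error only, since amplified reads that carry no molecular identifier do not each stand for 1 molecule. A total of 18153 gene identifiers matched RefSeq, and 26 symbols were restored from identifiers.

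The 8 genes and the lists of related genes were chosen with earlier results of these data known. Related genes named were a fixed panel and, per list and contrast with control, the largest called rise and fall among genes with at least 5 CPM in the higher group and no overlap. The nearest patterns were the 5 closest genes for NGFR and the 2 closest for the others. CDH3 was named after its values were seen. Some genes that the rule names are not reported here. Replicate numbers in the titles were checked as a pairing: deviations from the group mean correlated at 0.18, 0.14 and 0.18 for vemurafenib and control libraries of the same number. The pairing comes from the data, not from a statement in the labels, and a fit blocked on the number is an alternative.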

Additional observations from a re-analysis of the deposited data

How the results depend on the processing

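All 12 counts of calls, over all tested genes and over the related genes, stayed within 1.5 times of their values under every alternative run. With replicate number as a block, vemurafenib against control gave 3195 higher and 3348 lower calls, cisplatin against control 3369 and 3488, and vemurafenib against cisplatin 3346 and 3096. The block gave 48 and 48, 44 and 48, and 54 and 45 related genes in these comparisons. Same-numbered libraries correlated at 0.21, 0.08 and 0.13 for cisplatin and control and at 0.17, 0.01 and 0.1 for vemurafenib and cisplatin, so a pairing was not taken there. Leaving out each library in turn, vemurafenib against control gave 2378 to 3716 higher and 2661 to 3956 lower calls, cisplatin against control 2556 to 4220 and 2665 to 4422, and vemurafenib against cisplatin 2433 to 3755 and 2334 to 3402, with 43 to 52 and 43 to 49, 36 to 51 and 38 to 52, and 47 to 57 and 37 to 45 related genes.

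Of the 8 genes, FOXD3 after cisplatin ran from -0.06 to 0.44 and CDH19 between the drugs from -0.04 to 0.42 over all settings, both crossing 0, and PMP22 after cisplatin from -0.18 to -0.02. On log2(FPKM + 1), which understates low genes by construction, NGFR after cisplatin was -1.52, GFRA1 after vemurafenib 1.25 and AQP4 after vemurafenib 1.12. AQP4 between the drugs was 6.32 without cisplatin replicate 3, against 5.02 with it. Of the named related genes, 2944 values under alternatives kept their side of the threshold, 86 lost and 19 gained a call, and none reversed. Depth limits NGFR and AQP4 in cisplatin and GFRA1 and AQP4 in control libraries.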

Other observations

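The nearest protein-coding neighbours of the 8 genes, chosen after the data were seen, were listed on both sides from the RefSeq annotation. Of these 16 neighbours 12 were tested, and 6 rose and 3 fell after vemurafenib, while 1 rose and 3 fell after cisplatin (edgeR, adjusted p under 0.05). Over all tested genes 22.0% rose and 22.9% fell after vemurafenib, and 22.7% rose and 23.5% fell after cisplatin. A local effect around the 8 genes was not tested. ATRNL1, which lies 107.9 kb before GFRA1, rose after vemurafenib to 3.13 ± 1.08 CPM, against 1.39 ± 0.364 CPM in controls (log2 1.16 ± 0.35, edgeR adjusted p = 0.0176). After cisplatin, where GFRA1 was higher than in controls, ATRNL1 fell to 0.63 ± 0.294 CPM (log2 -1.13 ± 0.43, edgeR adjusted p = 0.0489). ALG6, 42.5 kb after FOXD3, rose to 24.7 ± 3.1 CPM after vemurafenib, against 13.7 ± 1.34 CPM in controls (edgeR adjusted p = 0.000816). DIP2A, 14.7 kb before S100B, fell after both drugs, to 27.2 ± 6.25 CPM after vemurafenib and 26.4 ± 2.7 CPM after cisplatin, against 45.2 ± 2.22 CPM in controls (edgeR adjusted p = 0.00296 and 0.00204), in the libraries where S100B was higher than in controls. NXPH3, 60.9 kb after NGFR, and CHST9, 40.7 kb after AQP4, did not pass the count filter.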
